A study of Mus musculus and Homo sapiens with 9 samples.

Results

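AHNAK, 4 S100 genes (S100A4, S100A6, S100A10, S100A11), 3 annexins (ANXA1, ANXA2, ANXA6), vimentin (VIM) and galectin-1 (LGALS1) were followed in human T cells with a knockdown and mouse T cells with a knockout of IRF2BP2, a transcriptional corepressor. These 10 genes were chosen by symbol because AHNAK was among the largest rises in earlier results of the human data. They had 10 rows among the 56105 annotated genes of the human table and 10 among the 42462 of the mouse table. Of the 10, 8 passed the filter on low counts in the human table and 10 did so in the mouse table.

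The human libraries came from J.gamma1 cells, a line of T cell acute lymphoblastic leukemia derived from Jurkat and known as deficient in the protein phospholipase C gamma 1. Its transcript, PLCG1, was present at 265 and 256 CPM with shNC and 316 and 346 CPM with shIRF2BP2, CPM being the counts of a gene per 1000000 counts of its scaled library. The cells carried a control short hairpin RNA (shNC, n = 2) or a hairpin against IRF2BP2 (shIRF2BP2, n = 2). The labels do not say which hairpin, or which clone or time point, the shIRF2BP2 libraries represent. The mouse libraries came from CD3+ T cells of the spleen, sorted on magnetic beads: Irf2bp2 KO (n = 2) and Wild type control (n = 3). The knockout mice were Irf2bp2 fl/fl and carried Vav-iCre, which is active throughout the blood lineage, so the gene was deleted in other blood cells as well. The labels call the controls wild type, whereas the study describes them as Irf2bp2 fl/fl animals without Vav-iCre. The labels give no age for the sequenced mice, and nothing states that replicates were separate cultures or which animals they came from, so each p-value measures only the spread between these libraries.

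Several proteins of this group work at the inner face of the plasma membrane. AHNAK is a giant scaffold protein that binds the complex of annexin A2 and S100A10 and links it to cortical actin and, in T cells, to calcium entry. S100 proteins are small calcium sensors of the EF-hand type. Annexins bind acidic phospholipids in the presence of calcium and take part in membrane repair and vesicle traffic. Vimentin is the main intermediate filament of lymphocytes, and galectin-1 is a secreted lectin that binds glycans on T cells. In T cells many of these transcripts are known to be higher in effector and memory cells than in naive cells.

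Total counts per library ranged from 26648204 to 31120236 in J.gamma1 cells and from 16668577 to 37177523 in mouse cells, where Wild type control replicate 3 was the shallowest. IRF2BP2 had 204 and 199 CPM in the shNC libraries and 79.0 and 93.8 CPM in the shIRF2BP2 libraries. Irf2bp2 had 112, 127 and 120 CPM in the Wild type control libraries and 0 counts in both Irf2bp2 KO libraries. All 12 T cell markers of the list passed the filter in both tables. Their summed level was 1870 to 2060 CPM with shNC and 1850 to 1980 CPM with shIRF2BP2, and 5140 to 6040 CPM in wild-type and 4070 to 4310 CPM in knockout mouse cells. A gene was called where edgeR's adjusted p was under 0.05 and the log2 fold change at least 0.5 in size.

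The promoters of AHNAK, S100A4 and ANXA2 are shown because AHNAK and S100A4 were higher together with shIRF2BP2, whereas ANXA2 was lower. Each is the 250 bases before the start of the main GENCODE transcript, read from hg38 and written 5′ to 3′ on the strand of the gene. Capitals mark matches, on either strand, to TGTGGT (the RUNX core), CGGAAG (an ETS core), TGANTCA (an AP-1 site), GGGCGG (a GC box) or the CArG box of serum response factor.
AHNAK, chr11:62546807-62547056, minus strand: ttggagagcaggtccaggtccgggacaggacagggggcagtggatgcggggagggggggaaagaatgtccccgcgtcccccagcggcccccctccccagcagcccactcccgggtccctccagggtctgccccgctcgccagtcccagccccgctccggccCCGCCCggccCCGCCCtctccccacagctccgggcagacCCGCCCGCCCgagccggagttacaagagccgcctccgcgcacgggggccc
S100A4, chr1:153545807-153546056, minus strand: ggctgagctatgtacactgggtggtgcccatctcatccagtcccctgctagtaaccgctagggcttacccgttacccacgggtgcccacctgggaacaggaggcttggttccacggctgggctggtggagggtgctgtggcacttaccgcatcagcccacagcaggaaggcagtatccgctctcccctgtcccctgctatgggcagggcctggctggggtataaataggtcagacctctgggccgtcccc
ANXA2, chr15:60397987-60398236, minus strand: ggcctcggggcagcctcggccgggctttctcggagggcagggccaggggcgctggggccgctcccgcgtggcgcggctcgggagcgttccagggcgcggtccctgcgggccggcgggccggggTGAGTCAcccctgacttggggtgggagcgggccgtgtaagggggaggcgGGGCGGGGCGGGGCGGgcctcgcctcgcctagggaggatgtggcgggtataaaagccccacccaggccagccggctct

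The AHNAK window held 4 GC boxes, of which a pair overlapped, and 22 CpG dinucleotides. Each of the genes AHNAK, S100A4 and ANXA2 has a further annotated start upstream that lies outside its window. The ANXA2 window held 3 overlapping GC boxes, 28 CpG and 1 AP-1 match. The S100A4 window held none of these motifs and 7 CpG. Over the 20033 protein-coding promoters of this length, the median was 18 CpG, 59% held a GC box, 4.74% the AP-1 motif, 8.87% the RUNX core, 21.8% the ETS core and 1.12% a CArG box. Of the RUNX, ETS, AP-1 and CArG motifs, the windows of AHNAK and S100A4 thus held none and that of ANXA2 only the 1 AP-1 match. This says nothing about binding of the factors. The windows of the other genes are not shown, so no trait of the genes that rose is read from these.

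Levels within J.gamma1 cells were compared per kilobase of transcript, since the transcripts run from 434 bases for S100A6 to 18761 bases for AHNAK. In the shNC libraries VIM stood highest at 306 and 381 CPM per kb, above 99% of the genes tested. ANXA6 followed at 93.0 and 101 CPM per kb and ANXA2 at 85.5 and 102 CPM per kb, and these ranges overlapped. S100A10 (39.5 and 66.0), ANXA1 (27.9 and 29.9), S100A4 (11.6 and 13.1), LGALS1 (3 and 4.64) and AHNAK (0.785 and 1.25 CPM per kb) came next, each without overlap with its neighbor. S100A11 had 7 counts over all 4 libraries and S100A6 none, which allows at most 0.0967 to 0.116 CPM of S100A6 per library, counting error only. J.gamma1 cells thus held abundant transcripts for vimentin and the annexins, few for AHNAK and galectin-1, and almost none for S100A6 and S100A11.

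Mouse T cells had another order. In the Wild type control libraries S100a10 had 183 to 271 CPM per kb and Anxa6 185 to 251, which overlapped. S100a11 (116 to 168) and Vim (126 to 137 CPM per kb) also overlapped, and Lgals1 (68.9 to 84.7) stood apart from both neighbors. S100a4 (10.3 to 30.1), Anxa2 (14.2 to 27.2), Ahnak (6.84 to 30.6) and S100a6 (11.8 to 21.3 CPM per kb) could not be ordered by these libraries. Anxa1 was lowest at 1.16 to 8.54 CPM per kb. All 4 S100 genes were therefore detected in the mouse cells, including the pair near or at 0 in J.gamma1 cells.

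**Figure D1:**
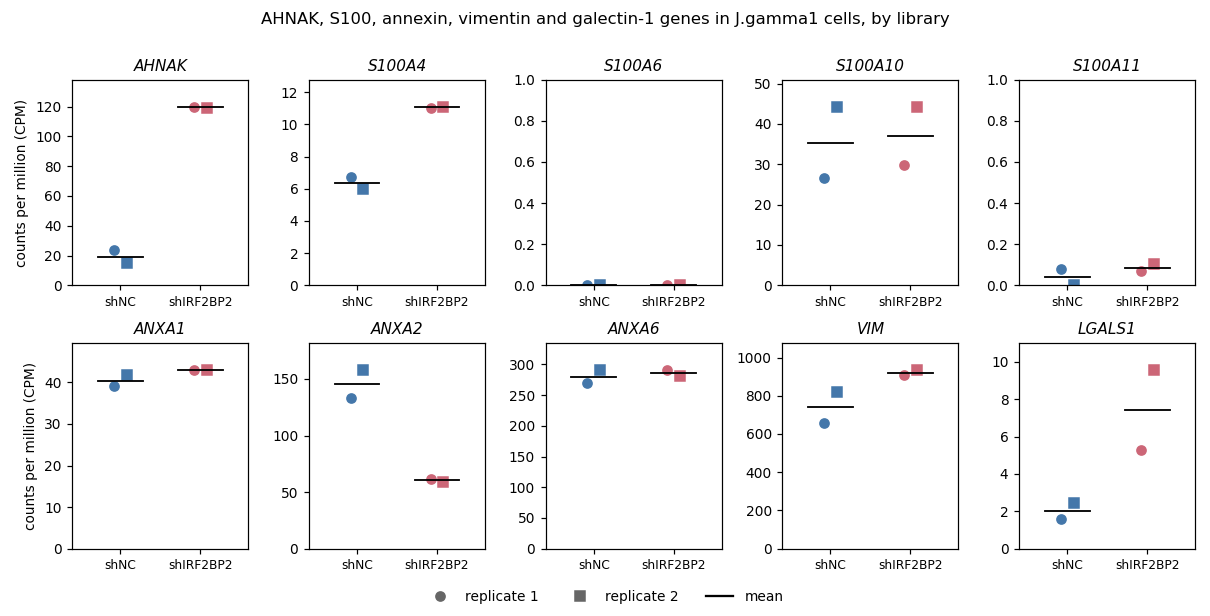
Levels in CPM of each of the 10 genes in the J.gamma1 libraries, with shNC in blue and shIRF2BP2 in red, circles for replicate 1, squares for replicate 2 and a bar for the group mean; each panel has its own axis from 0. The shIRF2BP2 libraries of AHNAK lie at 120 and 119 CPM and those of ANXA2 at 61.5 and 59.3 CPM, away from the shNC libraries, whereas those of S100A10 and ANXA6 overlap with them.

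Knockdown of IRF2BP2 in J.gamma1 cells went with higher AHNAK, LGALS1 and S100A4 and lower ANXA2. Because this contrast led to the choice of the genes, its values are a description without a test. By the rule above, 3 of the 8 tested genes were called higher, where 5.46% of all 15819 genes were called higher, and 1 was called lower, where 5.01% were. The median log2 fold change of the 8 was 0.201, against 0.007 over all genes. In 5 of the 8 genes both shIRF2BP2 libraries lay above both shNC libraries, and in 1 both lay below. Of all genes tested, 29.6% and 28.7% did so, so a lack of overlap alone was common in this comparison.

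AHNAK, which encodes the scaffold (chr11:62433542-62556235, minus strand, hg38), had 23.4 and 14.7 CPM with shNC and 120 and 119 CPM with shIRF2BP2. Both shIRF2BP2 libraries lay far above both shNC libraries, and they differed less from each other than the shNC libraries did. The log2 fold change was 2.65 ± 0.21 (SE), or 6.29-fold, from counts of 606 and 457 against 3508 and 3504. It was the largest among the 466 expressed genes with a transcript over 10 kb. As AHNAK was chosen for its large rise in these data, this rank partly follows from the choice. Long transcripts were higher with shIRF2BP2 by their median: the median log2 fold change rose from -0.18 for transcripts up to 1.5 kb to 0.31 for those over 10 kb. The shNC libraries also differed by length. Over 10 kb, their median deviations from the control mean were 0.20 and -0.20, against 0.31 and 0.35 in the shIRF2BP2 libraries. With a smooth trend on transcript length removed, an alternative added after the data were seen, AHNAK had a log2 fold change of 2.28.

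The libraries most like AHNAK's were sought among 9987 other genes of at least 10 CPM, by the root mean square difference of log2 CPM from the shNC mean over the 4 libraries. The nearest were IL26 (0.291), FLT3LG (0.377), RORA (0.444), TRIB2 (0.483) and EOMES (0.491). This distance depends on the size of the change, so genes with similarly large rises lie nearest by construction. Of these RORA alone had a transcript over 10 kb, at 10827 bases. The part of transcript length in the rise of AHNAK was not tested.

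ANXA2 and S100A10 encode the subunits of the complex that AHNAK binds. ANXA2 (chr15:60347134-60402883, minus strand) had 133 and 158 CPM with shNC and 61.5 and 59.3 CPM with shIRF2BP2. The groups did not overlap, and the level fell by 1.27 ± 0.13 (SE) on the log2 scale, or 2.41-fold. S100A10 (chr1:151982915-151993859, minus strand) had 26.5 and 44.3 CPM with shNC and 29.9 and 44.3 CPM with shIRF2BP2. Its replicates 2 were higher than its replicates 1 in both groups, and the groups overlapped, with a log2 fold change of 0.07 ± 0.26 (SE). Of the pair, only ANXA2 was thus called.

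The 3′ UTR of ANXA2 held the word AGGTCTA, shown here in capitals with its flanks because such words marked lower genes in earlier results of these counts.
ANXA2, chr15:60347558-60347586, minus strand, hg38: ttccagctaacAGGTCTAgaaaaccagct
Of the 10 genes, the other 9 held neither this word nor its core GGTCTA in the annotated 3′ UTR. Tested genes were split by the word where the annotated 3′ UTR reached 50 bases. The 714 with AGGTCTA showed a median of -0.14 on the log2 scale, 19.7% of them called lower, against 0.01 and 5.13% for the 11838 without. Because the word was chosen from these same counts, this split is a description and not a test. The list genes named for the largest called changes in J.gamma1 cells were also examined. The core GGTCTA stood in the 3′ UTR of MYL12A and IL7R, which fell, and of ZYX, KLF2, IL2RB and S1PR1, which rose. S1PR1 held the whole word. The hairpin sequence was not used here, so whether the word matches it was not tested, nor was the part of the word in the fall of ANXA2. Processed pseudogenes of ANXA2 held 4.72% of the summed counts, and ANXA2 was still called lower after those were added.

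S100A4 (chr1:153543613-153550136, minus strand), a calcium sensor tied to cell motility, had 6.72 and 5.96 CPM with shNC and 11 and 11.1 CPM with shIRF2BP2. The groups did not overlap, and the log2 fold change was 0.81 ± 0.20 (SE). It overlaps S100A3 on the same strand, which had 6 counts over all libraries against 1008 for S100A4. This call was lost in 6 of 14 alternatives, among them those that left out shIRF2BP2 replicate 1, shIRF2BP2 replicate 2 or shNC replicate 2. The other S100 genes of the group, S100A6 (chr1:153534599-153536244) and S100A11 (chr1:152032506-152047907), had too few counts to be tested: S100A6 had 0 in every library, and S100A11 had 2 and 0 with shNC and 2 and 3 with shIRF2BP2.

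LGALS1 (chr22:37675636-37679802, plus strand) had 1.58 and 2.45 CPM with shNC and 5.29 and 9.57 CPM with shIRF2BP2. All libraries were low, from 41 to 282 counts, and replicate 2 was the higher in both groups. The groups did not overlap, with a log2 fold change of 1.87 ± 0.37 (SE). The call was lost without shIRF2BP2 replicate 2, and when every gene with at least 1 count was kept.

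The remaining human genes differed little. VIM (chr10:17228241-17237593, plus strand) had 658 and 822 CPM with shNC and 906 and 935 CPM with shIRF2BP2, without overlap, and a log2 fold change of 0.31 ± 0.15 (SE). An antisense transcript, VIM-AS1, had 1572 counts over all libraries against 96450 for VIM, and reads of the pair cannot be told apart where strand was not used. ANXA1 (chr9:73151865-73170393, plus strand), a mediator that dampens inflammation, had 39.1 and 41.8 CPM with shNC and 43.0 CPM in both shIRF2BP2 libraries, a log2 fold change of 0.09 ± 0.12 (SE). ANXA6 (chr5:151100706-151157815, minus strand), an annexin with a duplicated core, had 269 and 291 CPM with shNC and 291 and 281 CPM with shIRF2BP2, a log2 fold change of 0.03 ± 0.12 (SE). None of these 3 was called.

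**Figure D2:**
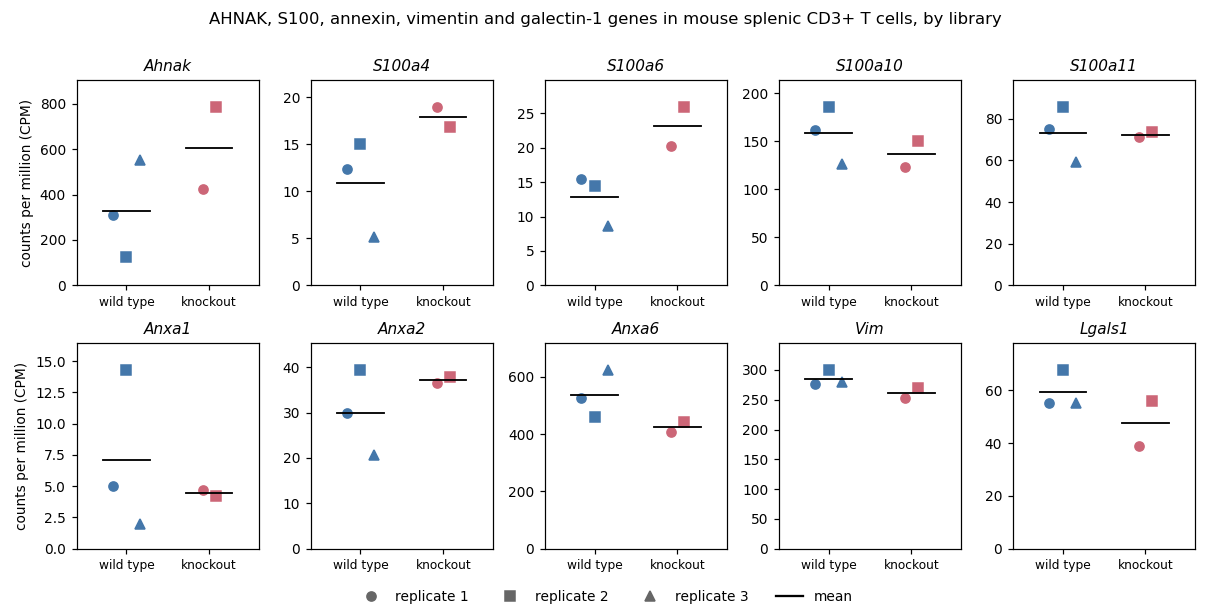
Levels in CPM of the same genes in mouse splenic CD3+ T cells, with Wild type control in blue and Irf2bp2 KO in red, circles, squares and triangles for replicates 1, 2 and 3 and a bar for the group mean; each panel has its own axis from 0. Ahnak spreads from 124 to 554 CPM among the wild-type libraries, and the knockout libraries of S100a4 and S100a6 lie above every wild-type library.

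In mouse T cells no gene of the group passed the test after knockout of Irf2bp2. Of the 10 tested, 0 were called by edgeR and 0 by DESeq2, and 1, S100a6, had an unadjusted p under 0.05. Over all 15350 genes tested, 2.68% were called higher and 0.15% lower. Of these 15350, 1566 had an unadjusted p under 0.05 on the higher and 922 on the lower side. The median log2 fold change of the 10 was -0.074, against -0.018 over all genes. In 2 genes, S100a4 and S100a6, both knockout libraries lay above every wild-type library, and in 2, Anxa6 and Vim, below, where 18.2% and 17.8% of all genes tested did so. In these sorted bulk samples, fewer cells of a type and less RNA per cell cannot be told apart.

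Ahnak had 311, 124 and 554 CPM in the Wild type control libraries and 426 and 788 CPM in the Irf2bp2 KO libraries. The groups overlapped, and the wild-type libraries alone spanned 4.48-fold. The log2 fold change was 0.88 with a 95% interval of -0.48 to 2.24 (adjusted p = 0.52 by edgeR). The interval held both a fall and a rise of up to 2.24, short of the 2.65 of AHNAK in J.gamma1 cells. The wild-type libraries stood in the same order for other long transcripts: Plec, a cytoskeletal linker, had 404, 300 and 742 CPM, and Flna, a filamin that crosslinks actin, had 1040, 578 and 1720 CPM. Over the 220 expressed genes with a transcript over 10 kb, the median deviation from the control mean was -0.01, -0.38 and 0.40 on the log2 scale in wild-type replicates 1, 2 and 3, and 0.31 and 0.27 in the knockout replicates. With the length trend removed, the log2 fold change of Ahnak was 0.67.

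**Figure D3:**
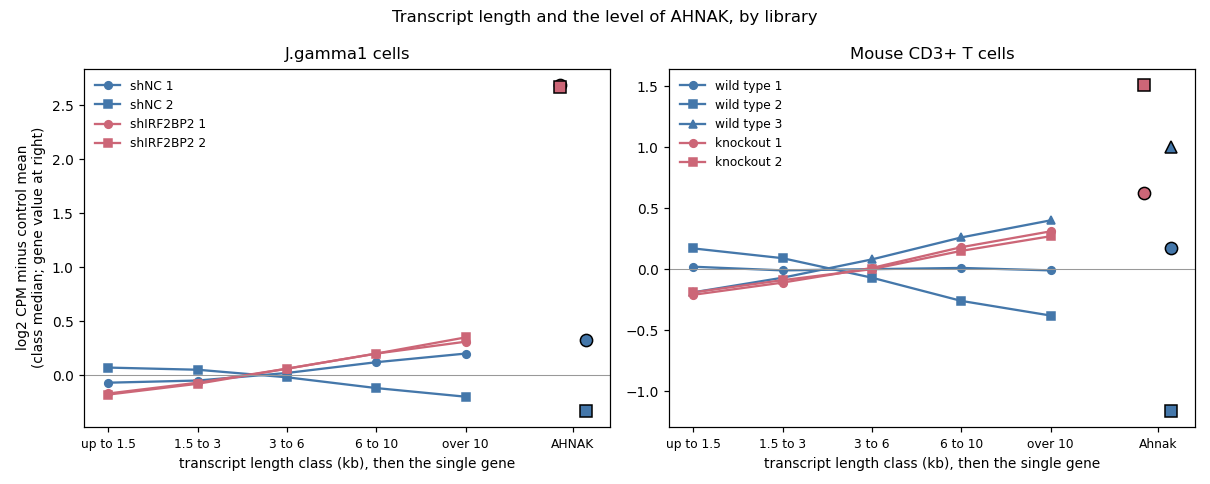
Median log2 CPM minus the control mean in 5 classes of transcript length, 1 line per library, for J.gamma1 cells (left) and mouse T cells (right), with the value of AHNAK or Ahnak itself as outlined symbols at the right of each panel. In J.gamma1 cells AHNAK lies at 2.69 and 2.67 in the shIRF2BP2 libraries, far beyond the class medians of 0.31 and 0.35 for transcripts over 10 kb. The shNC libraries of AHNAK, at 0.33 and -0.33, and the wild-type libraries of Ahnak follow the order of their class medians.

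By the same measure of likeness over the 5 mouse libraries, the genes nearest to Ahnak among 9402 were Gm10521 (0.221), Malat1 (0.229), Ptar1 (0.295), Arid5b (0.296) and Baiap3 (0.3). Malat1 is a nuclear long noncoding RNA. These 5 genes had adjusted p-values of 0.40 to 0.74 from edgeR and were not called.

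In the calcium sensors S100a4 and S100a6 both knockout libraries lay above every wild-type library. S100a6 had 15.5, 14.5 and 8.63 CPM in wild-type libraries and 20.3 and 26.0 CPM in knockout libraries. S100a6 had a log2 fold change of 0.83 and an interval of 0.16 to 1.51 before adjustment (edgeR adjusted p = 0.22). S100a4 had 12.4, 15.0 and 5.13 CPM in wild-type and 19.0 and 16.8 CPM in knockout libraries, a log2 fold change of 0.71 with an interval of -0.27 to 1.70 (edgeR adjusted p = 0.48). The annotation holds another protein-coding gene, Gm42674, on the same strand over S100a4, which had no row in the table. Wild type control replicate 3 was the lowest library for both genes.

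S100a10 and S100a11 had 162, 186 and 126 CPM and 75.2, 85.9 and 59.1 CPM in wild-type libraries, against 123 and 150 CPM and 71.2 and 73.6 CPM in knockout libraries. Both genes overlapped between the groups, with log2 fold changes of -0.21 (interval -0.67 to 0.26) and -0.02 (interval -0.44 to 0.39).

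Among the annexins, Anxa2 had 29.9, 39.4 and 20.6 CPM in wild-type and 36.6 and 37.9 CPM in knockout libraries, a log2 fold change of 0.31 (interval -0.31 to 0.93), so that the fall of ANXA2 in J.gamma1 cells lay outside the mouse interval. The mouse and human values come from different cells and perturbations, and the difference between them was not tested. Anxa6 had 526, 460 and 624 CPM in wild-type and 408 and 443 CPM in knockout libraries, without overlap, and a log2 fold change of -0.34 (edgeR adjusted p = 0.40). Anxa1 had 5.02, 14.3 and 1.94 CPM in wild-type and 4.73 and 4.22 CPM in knockout libraries, and 1 wild-type library thus set the high mean of that group. The log2 fold change of Anxa1 was -0.68 with all libraries and 0.34 without Wild type control replicate 2. That library was also the highest for S100a8 and S100a9, the granulocyte pair of calprotectin, at 39.9 and 58.8 CPM against at most 6.83 and 12.4 CPM in any other library. The 13 myeloid markers detected summed to 89.5 to 512 CPM in wild-type and 193 to 301 CPM in knockout libraries, 4 of the 13 had a log2 fold change above 0, and 0 were called by edgeR or DESeq2 or had an unadjusted p under 0.05. The part of myeloid RNA in the Anxa1 values was not tested.

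Vim had 276, 300 and 280 CPM in wild-type and 253 and 270 CPM in knockout libraries, a log2 fold change of -0.13 (interval -0.42 to 0.17). Lgals1 had 55.1, 67.8 and 55.4 CPM in wild-type and 38.8 and 56.2 CPM in knockout libraries, a log2 fold change of -0.32 (interval -0.79 to 0.14), so that a rise as large as that of LGALS1 in J.gamma1 cells lay outside the mouse interval. Vim was the most even of the 10 genes among the wild-type libraries, at 1.09-fold from lowest to highest, and Anxa1 the least even, at 7.37-fold.

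**Figure D4:**
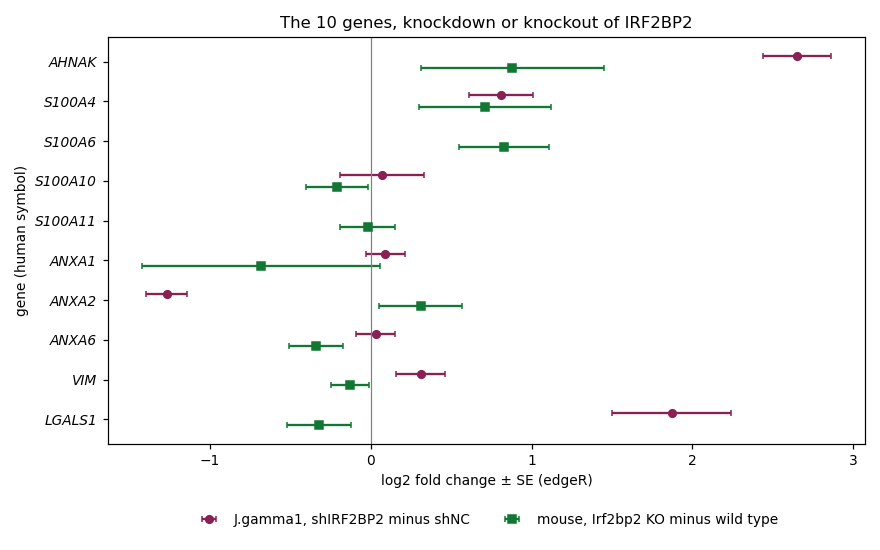
The log2 fold change of each gene with its standard error from edgeR, for shIRF2BP2 against shNC in J.gamma1 cells (purple circles) and for Irf2bp2 KO against Wild type control in mouse T cells (green squares); S100A6 and S100A11 have no human value because they did not pass the filter. AHNAK lies at 2.65 in human and 0.88 in mouse cells, and ANXA2 at -1.27 and 0.31.

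Relatives of these genes were examined by fixed lists. In J.gamma1 cells 73 genes of 8 related lists were tested, 9 were called higher and 2 lower, and their median log2 fold change was 0.097. Over all genes tested, 5.46% were called higher and 5.01% lower. Of all 15819 genes, 2257 had an unadjusted p under 0.05 on the higher and 2112 on the lower side. By edgeR and by DESeq2, 0 of the 2 other S100 genes tested, S100A13 and S100Z, and 0 of the 5 other annexins were called, and 0 of them had an unadjusted p under 0.05. Among these annexins ANXA5 had 75.2 and 81.8 CPM with shNC and 86.2 and 87.3 CPM with shIRF2BP2 (log2 fold change 0.14, edgeR adjusted p = 0.45). Of 3 other galectins, 1 rose, LGALS8, which encodes a galectin that binds damaged vesicles, from 58.1 and 61.2 to 77.3 and 101 CPM (0.58, edgeR adjusted p = 0.045). Of 9 other intermediate filament, lamin and linker genes, 0 were called by edgeR or DESeq2 and 2 had an unadjusted p under 0.05, and PLEC had a log2 fold change of 0.39 (edgeR adjusted p = 0.07). Of 5 tested AHNAK relatives and membrane repair genes, DYSF, the ferlin of membrane resealing, fell from 16.8 and 14.7 to 9.51 and 9.84 CPM (-0.70, edgeR adjusted p = 0.047). The calls of LGALS8 and DYSF were each lost in 5 of 14 alternatives. AHNAK2, the closest relative of AHNAK, did not pass the filter. Of the 7 penta-EF-hand and calpain genes tested, 0 were called by edgeR or DESeq2 and 0 had an unadjusted p under 0.05. Their log2 fold changes lay between -0.28 and 0.13.

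The list of cortical actin and membrane linkers held most of the related calls. Of its 26 tested genes, 7 rose and 1 fell, where 5.46% and 5.01% of all genes did, with a median log2 fold change of 0.286. Of expressed genes with transcripts over 6000 and up to 10000 bases, a class that held FLNA at 8507 bases, 13.9% were called higher. TPM4, a tropomyosin, rose from 867 and 869 to 2140 and 2070 CPM (1.28, edgeR adjusted p = 0.0022). FLNA rose from 726 and 590 to 1510 and 1350 CPM (1.12, adjusted p = 0.0055), and ZYX, the focal adhesion protein zyxin, from 32.1 and 34.6 to 62.5 and 60.3 CPM (0.88, adjusted p = 0.0054). MYL12A, a regulatory light chain of myosin, fell from 162 and 191 to 71.5 and 73.9 CPM (-1.28, edgeR adjusted p = 0.002). The group was not uniform, since MSN, the main ezrin-family linker of lymphocytes, had a log2 fold change of -0.03 and EZR of -0.01. RDX, of the same family, was called higher, from 51.2 and 49.2 to 90.8 and 87.8 CPM (0.83, edgeR adjusted p = 0.0049). Among 16 tested receptors and binding partners, PTPRC, the phosphatase CD45 that galectin-1 binds, rose from 439 and 426 to 964 and 910 CPM (1.11, edgeR adjusted p = 0.0029), and edgeR called none of the other 15. DESeq2 also called 1 lower, CD2, an adhesion receptor, which had 3.71 and 5.8 CPM with shNC and 1.44 and 2.27 CPM with shIRF2BP2 (-1.36, edgeR adjusted p = 0.054). Of these 16, 6 had an unadjusted p under 0.05 on the higher and 1 on the lower side, as did 2257 and 2112 of all 15819 genes.

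In mouse T cells 86 genes of the same lists were tested, 5 were called higher and 0 lower by edgeR, and the median log2 fold change was -0.166. Over all genes tested, 2.68% were called higher and 0.15% lower. DESeq2 called 3 lower, Myl6, Pfn1 and Coro1a of the cortical actin list, and 13 had a log2 fold change below 0 with an unadjusted p under 0.05. Of all 15350 genes tested, 922 had such a p on the lower and 1566 on the higher side. The calls fell on nuclear lamins and the cytoskeleton: Lmna, which encodes lamin A and C, rose from 5.24, 6.89 and 6.82 to 32.5 and 36.5 CPM (2.45, edgeR adjusted p = 0.0069), and Lmnb1 from 61.1, 71.1 and 55.2 to 101 and 111 CPM (0.76, edgeR adjusted p = 0.049). Myh10, a nonmuscle myosin heavy chain, rose from 6.29, 7.25 and 4.63 to 30.3 and 40.6 CPM (2.54, edgeR adjusted p = 0.0089), and Vcl, the adhesion protein vinculin, from 3.24, 4.48 and 4.44 to 16.1 CPM in both knockout libraries (2, edgeR adjusted p = 0.013). The fifth called gene, Gfap, stayed under 5 CPM. Without Irf2bp2 KO replicate 2 or without Wild type control replicate 1, 0 of these 5 calls remained, and without Irf2bp2 KO replicate 1 or Wild type control replicate 3 there were 2 and 3. Over 15 alternatives the call was lost in 2 for Lmna, 2 for Myh10, 3 for Vcl and 6 for Lmnb1. Erythroid markers moved with these genes: all 12 tested had a log2 fold change above 0, 6 were called higher, and they summed to 676 to 2330 CPM in wild-type and 4680 to 6530 CPM in knockout libraries. The part of erythroid RNA in the lamin, myosin and vinculin values was not tested. Among other cell type markers, B cell markers summed to 37.4 to 274 CPM in wild-type and 39.8 to 130 CPM in knockout libraries, plasma cell markers to 426 to 1170 and 1150 to 1520 CPM, NK cell markers to 94.0 to 164 and 74.3 to 114 CPM, and platelet markers to 95.6 to 124 and 136 to 139 CPM. Jchain, Klrd1 and Itgb3 were the largest parts of the plasma cell, NK cell and platelet sums. Itgb3 had 88.2, 81.4 and 117 CPM in wild-type and 125 CPM in both knockout libraries, and the platelet genes Pf4 and Ppbp had log2 fold changes of 0.21 and -0.02. All 7 plasma cell markers had a log2 fold change above 0, 4 with an unadjusted p under 0.05, and edgeR called 0 and DESeq2 1.

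**Figure D5:**
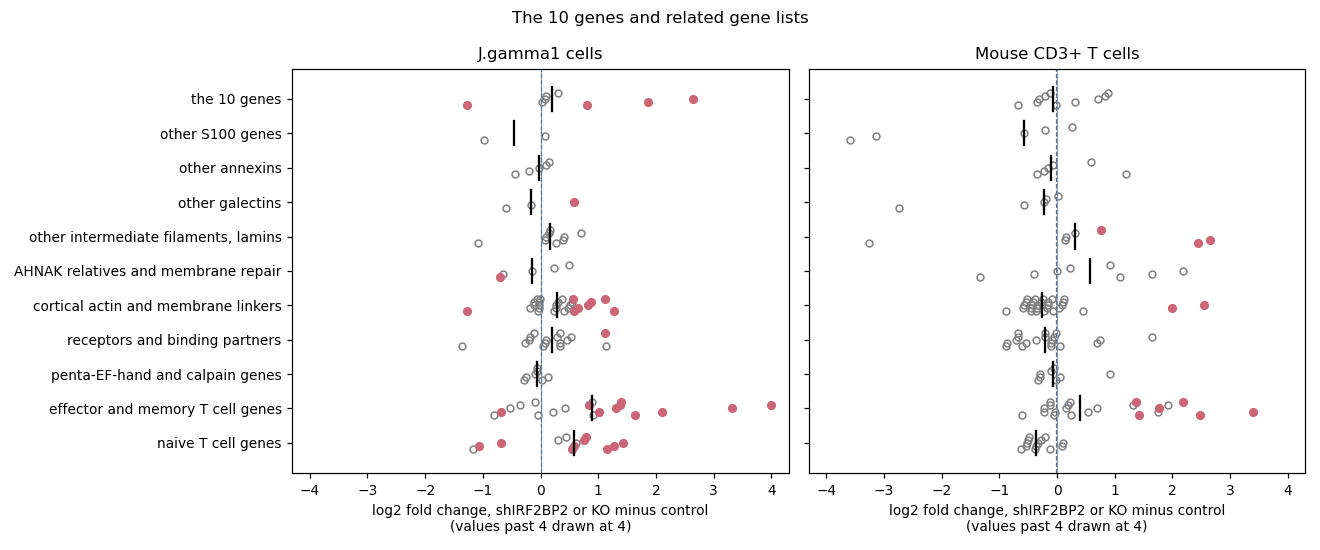
Log2 fold changes, shIRF2BP2 or Irf2bp2 KO minus control, of every tested gene in the 10 genes, the 8 related lists and the T cell lists, for J.gamma1 cells (left) and mouse T cells (right); filled red points are called, open points are not, black bars are list medians and the dashed line is the median of all genes. The cortical actin list has 7 genes called higher and 1 lower in J.gamma1 cells, and 2 called higher in the mouse.

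Genes of effector and memory T cells were set beside the group. In J.gamma1 cells 9 of 19 tested rose and 1 fell, where 5.46% and 5.01% of all genes did, and the median of their log2 fold changes was 0.895. The fall was that of GZMA, from 26.8 and 29.0 to 16.5 and 18.0 CPM (-0.69, edgeR adjusted p = 0.025). Among the rises, IFNG had 0 counts with shNC and 13 and 12 with shIRF2BP2, and IL2RB, ITGB7, PRDM1 and NKG7 reached at most 5.53 CPM. In mouse cells 6 of 22 rose, where 2.68% of all genes did, with a median of 0.388. No gene of this list was called lower in the mouse by edgeR, 1 by DESeq2 (Crip1), and 1 had a log2 fold change below 0 with an unadjusted p under 0.05. In J.gamma1 cells EOMES, a T-box factor of effector cells, rose from 11.8 and 11.3 to 112 and 119 CPM (3.32, edgeR adjusted p = 0.0001), ID2 by 2.1 (adjusted p = 0.0068), IL2RB by 1.64 (adjusted p = 0.012) and ITGB1, the integrin beta 1 chain, by 1.01 (adjusted p = 0.0031) on the log2 scale. EOMES was among the largest rises in earlier results of these data and was listed with that known. In mouse cells the granzyme genes Gzmk (3.39, edgeR adjusted p = 0.01) and Gzmb (2.47, adjusted p = 0.02) and the receptor gene Klrg1 (2.19, adjusted p = 0.046) rose, and Eomes had a log2 fold change of -0.03. Of 15 alternatives, Gzmk lost its call in 2, Gzmb in 3 and Klrg1 in 6.

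Genes of naive T cells were not lower as a group in J.gamma1 cells, where 7 of 13 rose and 2 fell, with a median log2 fold change of 0.578. Over all genes tested, 5.46% were called higher and 5.01% lower. Of the 7 that rose, BACH2 (9215 bases), IL6ST (9027), SATB1 (7822) and FOXP1 (7177) belonged to the length class of which 13.9% were called higher. S1PR1, the receptor for egress from lymphoid tissue, rose from 14.8 and 15.2 to 40.2 and 40.3 CPM (1.42, edgeR adjusted p = 0.0016), BACH2 by 1.27 (adjusted p = 0.003) and KLF2 by 1.16 (adjusted p = 0.0069) on the log2 scale, while IL7R, the interleukin-7 receptor, fell by 1.06 (edgeR adjusted p = 0.028), a call lost in 3 of 14 alternatives. In the mouse 0 of 13 were called by edgeR, with a median of -0.375, and 11 of the 13 had a log2 fold change below 0. DESeq2 called 4 of them lower, and 6 had an unadjusted p under 0.05 by edgeR, all on the lower side. Of all 15350 genes tested, 922 had such a p on the lower side. The T cell markers moved with them: 11 of 12 had a log2 fold change below 0, with a median of -0.398, 0 were called by edgeR, 6 had an unadjusted p under 0.05, and DESeq2 called Cd3d and Cd3g lower. The part of a lower T cell content in the naive list was not tested. The naive list thus leaned in opposite directions in the mouse and J.gamma1 cells, a difference that was not tested.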

How the data were processed

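RNA was extracted with TRIzol and made into TruSeq libraries, and 9 libraries were analysed: 2 shNC, 2 shIRF2BP2, 2 Irf2bp2 KO and 3 Wild type control. Per the labels and the study's methods, the authors aligned reads with HISAT2 2.2.0 to hg38 or mm10 and quantified them with StringTie, and they deposited whole-number counts per gene. How coverage became counts, and whether strand was used, is not given in the sources used here. Counts were matched to GENCODE by Ensembl identifier, which held 98% of human and 99.8% of mouse counts.

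Each table was fitted on all its genes with edgeR 4.0.16 (filterByExpr, TMM, quasi-likelihood test, Benjamini-Hochberg adjustment), without other groups or covariates. This left 15819 human and 15350 mouse genes. CPM are scaled by the TMM library size, and the SE is the log2 fold change divided by the root of F. The 10 genes, the related lists and the 3′ UTR word were chosen with earlier results of these data known. Besides these 10, the text names in each table up to 4 called genes per list, those with the largest change at 5 CPM or more, and the 5 genes most like AHNAK. Some items that this rule or the promoter scan covers are not reported here. Other genes named (ANXA5, PLEC, Flna, S100a8 and the like) were chosen after their values were seen. No pair of replicates agreed within sampling noise, with a chi-square of 19.6 to 92.2 per gene. The fits were tested on simulated data with 200 planted changes: of 100 genes changed by 1 on the log2 scale, edgeR called 77 among 15727 in the human design, with 2 false calls, and 48 of 100 among 15219 in the mouse design, with 13. All 100 changed by 2 were recovered in each. The simulation gave every gene the same spread, smaller than the common coefficient of variation estimated in the data (0.165 human, 0.271 mouse). It planted changes only in genes over 5 CPM and had no length trend, so these counts are not rates for the real libraries. Alternatives tried were upper-quartile and RLE scaling, DESeq2 1.42.0, 3 count filters, halved counts, other fold thresholds, a replicate block, each library left out, and pseudogene rows summed.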

Additional observations from a re-analysis of the deposited data

Results flagged for a closer look

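In 8 of 50 genes examined, both libraries with less IRF2BP2 lay on one side of every control in J.gamma1 cells and on the opposite side in mouse T cells, and the difference was not tested in any of them. Over the 9899 genes tested in both tables under 1 symbol, 1084, or 11%, did so. Many of the 50 were named for called changes or after their values were seen, so the shares cannot be compared directly. VIM was higher in both shIRF2BP2 libraries and Vim lower in both Irf2bp2 KO libraries than in every control, and the J.gamma1 log2 fold change exceeded the mouse one by 0.44. The same held for LGALS8, with a difference of 0.77, TPM4, with 1.69, ZYX, with 1.47, ANXA5, with 0.5, and MYL6, with 0.89. For KLRG1 the directions were reversed, lower in J.gamma1 cells, at 0.966 and 1.06 CPM with shNC and 0.618 and 0.543 CPM with shIRF2BP2, and higher in knockout mouse cells, with a difference of -2.99. BAIAP3 was likewise lower in J.gamma1 and higher in knockout mouse cells, with a difference of -1.25. GZMA, named above but not among these 50 genes, was also lower in J.gamma1 and higher in knockout mouse cells, without overlap. Of the 10 genes of the report, only VIM met this criterion. Among the 8 genes, edgeR called only the human values of LGALS8, TPM4 and ZYX and the mouse value of Klrg1, and DESeq2 also called Myl6 lower.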

How the results depend on the processing

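S100A6 and S100A11 had too few counts in J.gamma1 cells to be tested, and the spread among wild-type libraries limited Ahnak, S100a4 and Anxa1 in the mouse. With 2 libraries in most groups, leaving out 1 leaves a lone library that is assumed to vary like the others. AHNAK and ANXA2 kept their calls in all 14 alternatives, with log2 fold changes of 2.28 to 3.02 and of -1.39 to -1.14. For the 10 mouse genes, 0 were called under every alternative run, and Ahnak ranged from 0.35 to 1.56.

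With all genes of at least 1 count in any library kept, the 3 genes called higher in J.gamma1 cells became 1 (AHNAK), the related genes called lower 1, and all genes called 319 higher and 396 lower. With all rows kept, 1 related gene was lower. With a log2 threshold of 1, the related genes called were 3 higher and 1 lower, and all genes 262 higher and 318 lower. In the mouse DESeq2 called 3 related genes lower, and 921 genes higher and 220 lower in all; halved counts gave 37 lower genes, and removal of the length trend, chosen after seeing the data, 54. The replicate numbers shared no stated batch (correlation of deviations 0.225 in J.gamma1 cells, and 0.151 and -0.161 in the mouse); with the replicate number as a block, 4 related genes were called lower in J.gamma1 cells, and in the mouse 3 related genes higher and 53 of all genes lower. The cause of these shifts was not tested.

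Over the fits that left out 1 library each, the genes of the group called higher in J.gamma1 cells numbered 1 to 3, with 1 without shIRF2BP2 replicate 2, and those called lower 1. Related genes called higher ranged from 5 to 11, with 5 without shIRF2BP2 replicate 2, and those lower from 1 to 2, with 1 without shIRF2BP2 replicate 1. All genes called ranged from 418 to 1608 higher and from 419 to 1143 lower. In the mouse, related genes called higher ranged from 0 (without Irf2bp2 KO replicate 2 or Wild type control replicate 1) to 4, all genes higher from 6 to 594 and lower from 1 to 65.

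ANXA6 turned to -0.022 under upper-quartile scaling, and over the fits that left out 1 library it ranged from -0.026 to 0.089. S100A10 was -0.25 without shIRF2BP2 replicate 2, and its range over these fits was -0.26 (without shNC replicate 1) to 0.48. S100a11 turned to 0.024 with at least 10 counts in every library, to 0.14 with the length trend removed and to 0.12 without Wild type control replicate 2, and Anxa1 turned to 0.34 without that library. Without Wild type control replicate 3 they were -0.16 and -1.12, the other end of their leave-one-out ranges.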
